A study of Mus musculus with 12 samples.

Results

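Metallothioneins are small cysteine-rich proteins that bind zinc, copper and cadmium, and Mt1, Mt2 and Mtf1 are described here across WT and Mtr4-null mouse oocytes. The 3 genes were chosen by symbol, with their levels in these groups already known, from a table of 23235 gene symbols. The table holds poly(A) RNA of oocytes from the ovary, sequenced from Smart-seq2 libraries, which cover transcripts end to end and do not keep the strand. The 4 groups are WT at day 14, Mtr4-null at day 14, WT at day 21 and Mtr4-null at day 21, and the labels call the day 14 oocytes growing GV and the day 21 oocytes GV (germinal vesicle, before meiotic resumption). Each group has 3 labelled samples of 10 oocytes, 12 in all, although the design text speaks of duplicates. ERCC spike-in RNA was part of the lysis mix in all groups. MTR4 is the RNA helicase that delivers nuclear RNA to the exosome, the complex that degrades RNA from its 3′ end. The deleted part of the gene, the Cre driver if one was used, the strain, and whether samples within a group are from separate animals are not given in the sources used here.

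The values are FPKM, fragment counts divided by transcript length and by sequencing depth, and the table gives 1 mean per gene and group, made by the authors. No value below therefore has an SD or a test, and the depth of the libraries is unknown. A difference between groups is the difference of log2(FPKM + 1), which makes folds at low FPKM look smaller than they are. A gene is called 2-fold higher or lower at a log2 difference of at least 1 in size, which is a rule of size and says nothing about replicate spread. Counts over genes use the 11913 genes with a mean of at least 1 FPKM over the 4 groups. Mt1 and Mtf1 passed that minimum and Mt2 did not. In bulk libraries of this kind, fewer cells carrying a transcript and less of it per cell cannot be told apart. The targeted gene, which encodes MTR4 and is listed under its older symbol Skiv2l2, had WT and Mtr4-null means of 27.6 and 1.57 FPKM at day 14 and of 26.3 and 3.86 FPKM at day 21. The Mtr4-null column at day 21 differs from the others in its digits: 0.0481% of its values above 0 end as a mean of 3 rounded numbers does, against 65.2% to 66.2% in the others, so it may average fewer libraries. Its FPKM sum to 649983, against 595721 to 603675 in the others, and each value given for Mtr4-null oocytes at day 21 rests on it.

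The metallothionein genes lie side by side in the genome and encode proteins in which cysteines hold metal ions in clusters. Mt1 and Mt2 are the broadly expressed pair, Mt3 is best known from the brain and Mt4 from stratified squamous epithelium. MTF1, the metal-regulatory transcription factor encoded by Mtf1, is a zinc finger protein that responds to zinc and cadmium. It binds metal response elements in the promoters of Mt1 and Mt2, and of other genes such as the zinc exporter gene Slc30a1. Zinc is also a regulator of the oocyte itself: fully grown oocytes accumulate it during maturation and release it at egg activation.

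The coding sequences of Mt1 and Mt2 are shown first because reads of so similar a pair could be assigned to the wrong gene. Both are 186 bases long including the stop codon, taken from the 3-exon transcripts with the longest leader in GENCODE vM21 on GRCm38, and the capitals mark the bases at which they differ.
Mt1: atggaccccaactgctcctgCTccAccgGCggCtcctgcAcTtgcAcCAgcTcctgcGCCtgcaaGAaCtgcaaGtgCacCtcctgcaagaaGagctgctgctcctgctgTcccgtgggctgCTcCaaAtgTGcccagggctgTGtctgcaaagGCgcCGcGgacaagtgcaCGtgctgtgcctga
Mt2: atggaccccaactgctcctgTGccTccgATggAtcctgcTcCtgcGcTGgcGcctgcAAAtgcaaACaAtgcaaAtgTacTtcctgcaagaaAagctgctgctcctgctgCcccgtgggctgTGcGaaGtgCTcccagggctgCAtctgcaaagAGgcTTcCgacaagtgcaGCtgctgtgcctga
They differed at 38 bases and were 79.6% identical. The longest identical run was 20 bases, at positions 1 to 20 from the start codon. Of the 62 codons of each, 20 were TGC or TGT, the codons of cysteine, and all 20 stood at the same positions in both genes. Over all their annotated transcripts, Mt1 and Mt2 shared no stretch of 50 bases. Mt1 shared none of its 1292 distinct stretches of 50 bases with any other annotated gene. Only annotated transcripts were searched, so Mt1 sequence carried by an introduced construct would not have been seen. Mt2 shared 254 of 554, or 45.8%, with Gm45774, which is annotated on the opposite strand. As the libraries do not keep the strand, reads of that part of Mt2 and of Gm45774 cannot be told apart, so the low values of Mt2 are uncertain. For Mtf1, 672 of 8898 stretches, or 7.55%, were shared with its neighbour 1110065P20Rik.

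In GRCm38, these transcripts lie on the forward strand, that of Mt1 at chr8:94179082-94180327 and that of Mt2 at chr8:94172664-94173568. Each has 3 exons, and their exonic lengths are 549 and 511 bases. The longest transcript of Mtf1 lies on the forward strand at chr4:124802549-124849800. It has 11 exons and 7631 bases, of which 2028 are coding. The submitters' processing notes name an older build, mm9, so these positions describe the reference and are not those the authors counted on.

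The core of the metal response element was searched as TGCACNC and TGCGCNC on both strands, patterns that differ at 1 base and so cannot match at the same place. The matches nearest to the start codon are shown because they lie within the longest annotated leader of each gene, the transcribed part before the start codon. Each is given as 27 bases of the forward strand with the match in capitals, and the first of each pair matches on the opposite strand.
Mt1 at chr8:94179163-94179189: accgcctgctGGGTGCAaaccctttgc
Mt1 at chr8:94179177-94179203: gcaaacccttTGCGCCCggactcgtcc
Mt2 at chr8:94172685-94172711: cggcgggggcGCGTGCAtggtgccttc
Mt2 at chr8:94172719-94172745: gcggagctttTGCGCTCgacccaatac
Counted in bases from the start codon, these matches begin at -138 and -124 in Mt1 and at -153 and -119 in Mt2. In the RefSeq promoter windows of GRCm38, which run from 250 bases before to 50 bases after each annotated start, Mt1 held 3 matches and Mt2 held 4. Of all 32851 such windows, 25.7% held at least 1 match, 1.97% at least 3 and 0.517% at least 4. The window of Mtf1 held 0 matches, and those of Mt3 and Mt4 held 1 each. The leader of Mt1, 229 bases long, held 4 matches, and 0.216% of the 19431 annotated leaders at least as long held 4 or more in the same number of bases. The leader of Mt2, 184 bases long, held 3, and 0.461% of 24744 leaders counted the same way held 3 or more. Window and leader together, Mt1 had 5 distinct matches over 472 bases and Mt2 had 7 over 480 bases. Both genes thus carried several matches, the larger number in Mt2. Shorter annotated leaders, of 70 and 100 bases in Mt1 and 93 bases in Mt2, hold none of these matches. A match is a description of the letters and does not show that MTF1 is bound there.

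**Figure D1:**
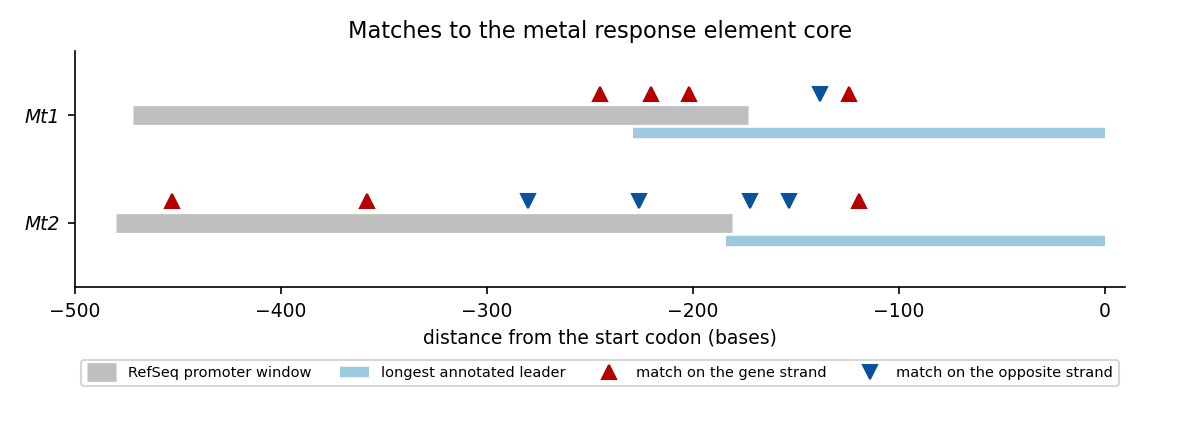
Positions of matches to TGCACNC and TGCGCNC before the start codons of Mt1 and Mt2, with distance from the start codon in bases on the x axis, 1 row per gene, and triangles for matches on the gene's strand and on the opposite strand. Grey bars are the RefSeq promoter windows and blue bars the longest annotated leaders; Mt1 had 5 matches and Mt2 had 7, the nearest at -124 and -119.

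RNA counted as Mt1 was scarce in WT oocytes and among the most abundant in Mtr4-null oocytes at both ages. Whether all of it came from the endogenous gene was not tested. At day 14 the WT mean was 1.48 FPKM and the Mtr4-null mean 640.5 FPKM. At day 21 the WT mean was 1.77 FPKM and the Mtr4-null mean 446 FPKM. Both Mtr4-null means were thus high and both WT means low, and the ages of a genotype lay far nearer to each other than the genotypes did. The log2 difference between genotypes was 8.02 at day 14 and 7.33 at day 21, and the ratio of the FPKM themselves was 433 and 252. Ranked by FPKM among the 23235 symbols, Mt1 moved from place 10383 in WT to place 114 in Mtr4-null oocytes at day 14, and from 9931 to 231 at day 21. Its share of all FPKM in Mtr4-null oocytes was 0.108% at day 14 and 0.0686% at day 21. By the size of the log2 difference, Mt1 was the 13th highest of 11913 genes at day 14 and the 41st at day 21.

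**Figure D2:**
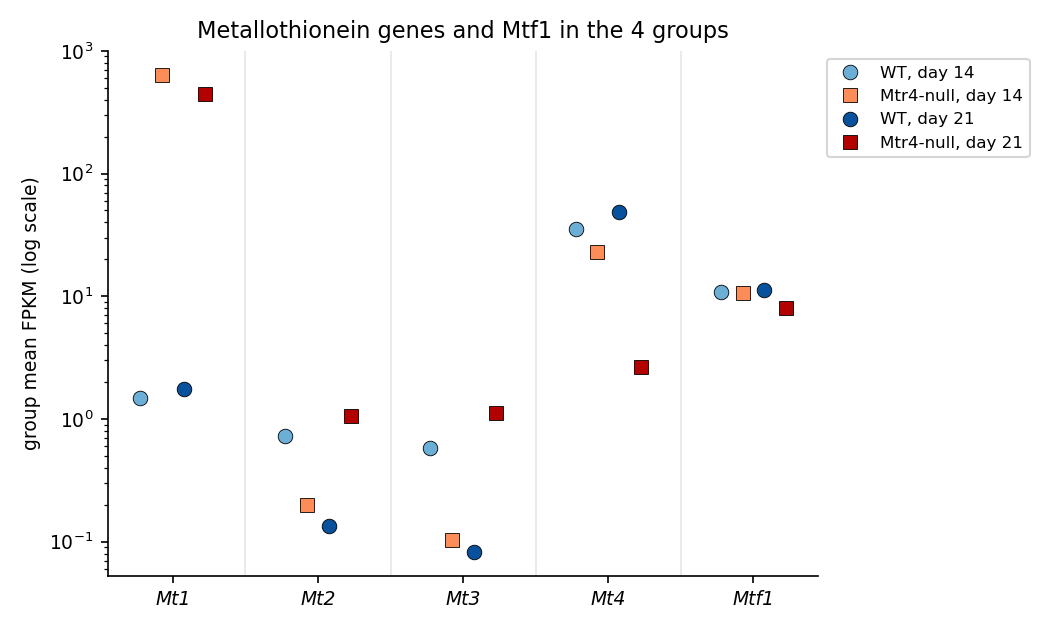
Group mean FPKM on a log axis for the metallothionein genes and Mtf1, 1 marker per group. Mt1 is the gene with the widest gap between genotypes, at 1.48 and 1.77 FPKM in WT against 640.5 and 446 FPKM in Mtr4-null oocytes, while Mtf1 stays between 7.99 and 11.3 FPKM.

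Mt2, which in many tissues is expressed alongside Mt1, was near or under 1 FPKM in every group. At day 14 its WT mean was 0.724 FPKM and its Mtr4-null mean 0.199 FPKM, and at day 21 they were 0.133 and 1.05 FPKM. The highest of these 4 means was thus Mtr4-null at day 21 and the lowest WT at day 21. The log2 differences between genotypes were -0.52 at day 14 and 0.86 at day 21, which differ in sign and are short of 2-fold. With a pseudocount of 0.1 in place of 1 both passed 2-fold, at -1.46 and 2.31. The ratio of Mt1 to Mt2 in FPKM was 2.04 in WT and 3222 in Mtr4-null oocytes at day 14, and 13.3 and 423 at day 21. The gap between genotypes in Mt1 thus had no counterpart of like size in Mt2.

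Mtf1 was at moderate levels in all groups. At day 14 its WT mean was 10.8 FPKM and its Mtr4-null mean 10.7 FPKM, and at day 21 they were 11.3 and 7.99 FPKM. In order of level the groups ran WT at day 21, WT at day 14, Mtr4-null at day 14 and Mtr4-null at day 21, and the first 3 lay close together. With no spread over samples, none of these neighbours can be called apart. The log2 difference between genotypes was -0.01 at day 14, and its sign turned when the columns were scaled to the same sum. At day 21 it was -0.46, against a median of -0.27 over all genes, so that Mtf1 stood at -0.18 relative to the median gene.

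Of the 2 members above the minimum level, 1 (Mt1) was at least 2-fold higher in Mtr4-null oocytes at day 14 and 0 were lower. Over all 11913 genes, 8.10% were higher and 1.55% lower at that age, 9.65% in either direction. At day 21 again 1 member was higher and 0 lower, beside 20.2% higher and 25.7% lower over all genes, 46.0% in either direction. As the members were chosen with these values known, nothing is read from their counts. The median log2 difference over all genes was 0.05 at day 14 and -0.27 at day 21. Median-of-ratios scaling took the latter to 0.00 and the split at day 21 from 2410 higher and 3067 lower to 2895 higher and 2155 lower. Relative to the median gene, Mt1 was higher in Mtr4-null oocytes by 7.96 at day 14 and 7.61 at day 21, and by 7.92 and 7.63 under that scaling.

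Mt1 was also set among genes that WT oocytes hardly contained, with limits on level chosen after the values were seen. At both ages, 12999 symbols stood under 2 FPKM in WT. Of these, 82 reached at least 10 FPKM in Mtr4-null oocytes at both ages, and 58 of the 82 lay outside short RNA loci. Short RNA loci were told by symbol only, as names that start with Mir, Snor, Scarna or Rnu. By that rule the non-coding RNA genes Rmrp and Rpph1 count among the 58. At least 100 FPKM at both ages was reached by 12 of them, and Mt1 was the 1 symbol among the 12 outside short RNA loci. That depends on where both limits are set. 2900060B14Rik, at 77.7 FPKM in Mtr4-null at day 14 and 338 FPKM at day 21, fell short at day 14 only. AI506816, at 462 and 2710.0 FPKM in Mtr4-null oocytes, was left out by the WT limit alone. Its WT means were 9.31 FPKM at day 14 and 11.1 FPKM at day 21. At least 400 FPKM was reached by 5, with Mt1 again the 1 outside short RNA loci.

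**Figure D3:**
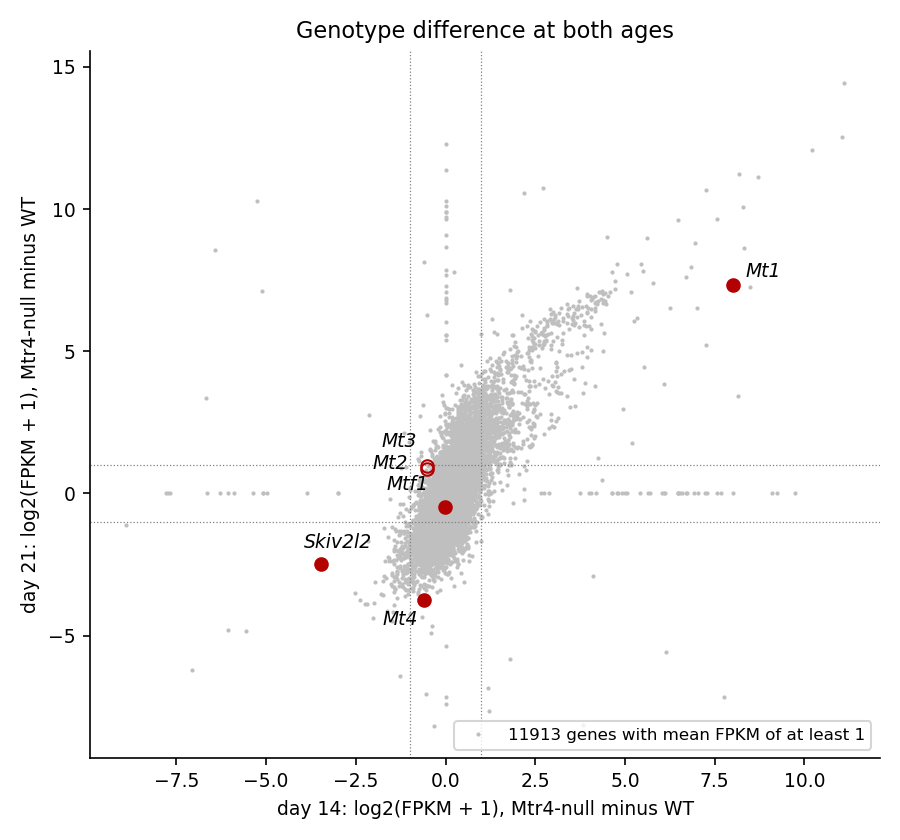
Log2(FPKM + 1) in Mtr4-null minus WT oocytes at day 14 (x axis) and day 21 (y axis), 1 grey point for each of the 11913 genes, with the metallothionein genes and Mtf1 named. Mt1 lies at 8.02 and 7.33 in the upper right, Mt4 at -0.60 and -3.76, and Mtf1 at -0.01 and -0.46 near the bulk of genes; the sign of Mtf1 at day 14 turned when columns were scaled to the same sum.

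Between the ages, Mt1 and Mtf1 differed little in WT oocytes. Mt1 was 0.16 higher at day 21 than at day 14 on the log2 scale, Mtf1 was 0.07 higher, and Mt2 differed by -0.61, from 0.724 to 0.133 FPKM. None of the members passed 2-fold on this scale, although the FPKM of Mt2 were 5.43 times higher at day 14 and its difference with a pseudocount of 0.1 was -1.82, past 2-fold. This stands beside 2.02% of all genes higher and 3.32% lower with age in WT, 5.35% in either direction. In Mtr4-null oocytes the difference with age was -0.52 for Mt1, -0.38 for Mtf1 and 0.78 for Mt2, all short of 2-fold on this scale. The FPKM of Mt2 were 5.3 times higher at day 21, and with a pseudocount of 0.1 its difference was 1.95, past 2-fold. Over all genes 9.08% were higher and 18.6% lower in that comparison, 27.7% in either direction. The median gene there differed by -0.30, and under median-of-ratios scaling, with the median at 0.05, Mt1 differed by -0.10 and Mtf1 did not keep its sign, at 0.003. The genotype difference at day 21 minus that at day 14 was -0.68 for Mt1, -0.45 for Mtf1 and 1.38 for Mt2, and this difference between ages was not tested.

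The remaining metallothioneins stood in a different order. In WT oocytes Mt4 was the highest of the family, at 35.5 FPKM at day 14 and 48.3 FPKM at day 21. The Mtr4-null means were 23.1 and 2.64 FPKM. The log2 difference of Mt4 was thus -0.60 at day 14, short of 2-fold, and -3.76 at day 21, where the WT mean was 18.3 times the Mtr4-null mean. By the latter difference it was the 29th lowest of 11913 genes, and it kept its direction and its side of 2-fold under all scalings tried. Mt3 had a WT mean of 0.577 FPKM and a Mtr4-null mean of 0.103 FPKM at day 14, and of 0.0826 and 1.11 FPKM at day 21. Like Mt2, it was highest in Mtr4-null at day 21 and lowest in WT at day 21.

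Summed over the 4 genes, metallothionein RNA came to 38.3 FPKM in WT at day 14 and 664 FPKM in the Mtr4-null group of that age, and to 50.3 and 451 FPKM at day 21. Mt4 made up 92.7% of that sum in WT at day 14 and 96.1% at day 21. In Mtr4-null oocytes Mt1 made up 96.5% at day 14 and 98.9% at day 21. The sum was thus nearly all Mt4 in WT and nearly all Mt1 in Mtr4-null oocytes, at both ages.

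The gene order on chromosome 8 is Bbs2, Mt4, Mt3, Mt2, Mt1, Nup93. Bbs2, a gene of the ciliary BBSome, stood between 5.63 and 6.58 FPKM in the 4 groups. Nup93, a nuclear pore scaffold gene, had WT and Mtr4-null means of 61.5 and 58.4 FPKM at day 14 and of 64.2 and 43.3 FPKM at day 21, differences of -0.07 and -0.56. The genes that flank the cluster were therefore within 2-fold at both ages, as was Mt4 at day 14, while Mt1 between them was not. Farther on, Slc12a3 was listed at 0 in all groups, and Herpud1, an endoplasmic reticulum stress gene, had WT and Mtr4-null means of 1.23 and 1.05 FPKM at day 14 and of 0.23 and 2.08 FPKM at day 21. Its difference of 1.32 at day 21 passed 2-fold, also under the other 3 scalings. The annotated neighbours Gm39227, Gm39228 and Rpl10-ps5 were not analysed here.

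Around Mtf1, Inpp5b, Yrdc and Mir698 passed 2-fold at day 21 and the other measured neighbours did not. That stands beside 46.0% of all genes past 2-fold at that age, so nothing is read from their number. Inpp5b, an inositol polyphosphate phosphatase gene, had WT and Mtr4-null means of 18.7 and 23.9 FPKM at day 14 and of 18.8 and 43.7 FPKM at day 21, a log2 difference of 1.17 at the later age. Pairs of values below are in the same order, WT before Mtr4-null. Yrdc, a gene of transfer RNA modification, stood at 13.8 and 16.6 FPKM at day 14 and at 6.68 and 29.8 FPKM at day 21, a ratio of 4.45. The microRNA locus Mir698 was at 46.4 FPKM in the Mtr4-null group at day 21 and listed at 0 elsewhere. 1110065P20Rik, which overlaps Mtf1, stood at 14.6 and 22.7 FPKM at day 14 and at 16.3 and 14.6 FPKM at day 21. Sf3a3, a splicing factor gene, stood between 109 and 125 FPKM in all groups. Fhl3 stood between 0.751 and 1.32 FPKM, Maneal was at or near 0, and Gm32117 was not analysed here.

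**Figure D4:**
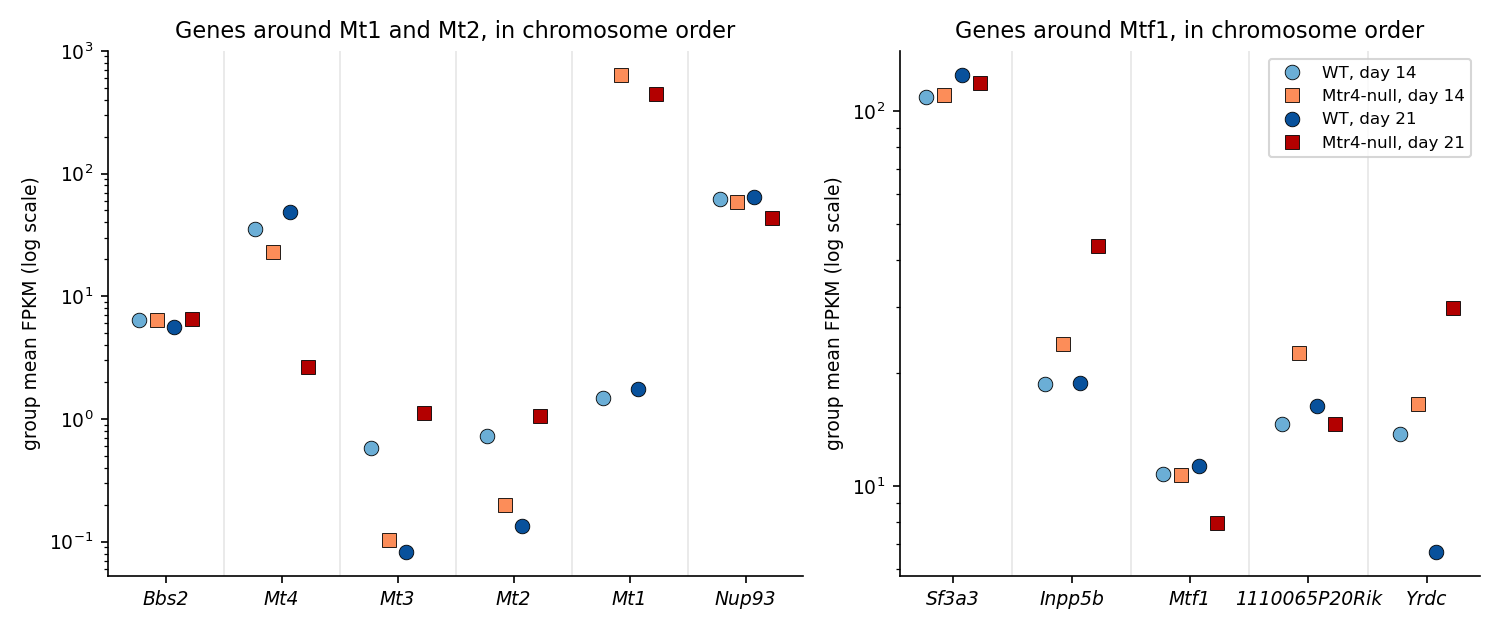
Group mean FPKM on a log axis for genes around Mt1 and Mt2 (left) and around Mtf1 (right), in chromosome order, 1 marker per group. Among the plotted genes of the left panel, Bbs2 and Nup93 hold their level across groups within 2-fold. Mt1 is higher in Mtr4-null at both ages, while Mt4 is lower, past 2-fold at day 21 and short of it at day 14.

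The genes with the most similar profiles were taken as those with the smallest root mean square distance between centred log2(FPKM + 1) values over the 4 group means, among genes of at least 5 FPKM on average and outside short RNA loci. For Mt1 they were 2900060B14Rik (distance 1.08), AI506816 (1.20), Rmrp (1.30), Gm5531 (1.45) and Snhg3 (1.45). All 5 were non-coding or unnamed symbols, and none was close on this measure. Their order between ages also differed from that of Mt1: the Mtr4-null mean of AI506816 was 462 FPKM at day 14 and 2710.0 FPKM at day 21, and that of Snhg3 139.8 and 693 FPKM, whereas that of Mt1 was lower at day 21. For Mtf1 the nearest were Ercc8, Mrpl28, Gtse1, Fam86 and Mfap1b, at distances of 0.019 to 0.021. Mt2 had as nearest Xpo1 (0.069), Fam105b, AI413582, Arl4d and Aplf (0.135). With 4 points per profile, and with these genes picked from 8033 genes (8034 for Mt2), the distances describe the shape of the means and no more.

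The counts of the gene lists that follow stand beside 9.65% of all genes past 2-fold at day 14, and beside 46.0% at day 21, 20.2% higher and 25.7% lower. Their medians stand beside 0.05 and -0.27 over all genes. Of the 6 other genes on a list of reported MTF1 targets, 5 were above the minimum level. At day 14, 0 were 2-fold higher and 0 lower, and the median log2 difference was -0.11. The later age had 0 higher and 2 lower, and the median was -0.73. The list does not record whether MTF1 is reported to raise or to lower each gene. Its counts and medians are therefore no measure of MTF1 activity. Slc30a1, the zinc exporter of the plasma membrane, stood at 3.01 and 3.66 FPKM at day 14 and at 2.83 and 6.25 FPKM at day 21. Its log2 difference of 0.92 at day 21 was the highest of the list and passed 2-fold under median-of-ratios scaling, which gave 1 higher and 2 lower. The selenoprotein gene Sepw1 stood at 356 and 236 FPKM at day 14 and at 394 and 129.8 FPKM at day 21, a difference of -1.60. Slc39a10, a zinc importer gene, also differed by -1.60 at day 21. Csrp1 stood at 8.33 and 10.7 FPKM and then at 7.57 and 4.18 FPKM, and Gclc between 2.42 and 3.22 FPKM in all groups. At day 14 the differences of the 5 genes ran from -0.59 to 0.33.

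The zinc transporters are the Slc30a genes, which move zinc out of the cytosol, and the Slc39a genes, which bring it in. Of 24, 15 were above the minimum level. At day 14, 0 of the 15 were 2-fold higher and 0 lower, the median difference being 0.20 against 0.05 over all genes. At day 21, 2 were higher and 3 lower, beside 46.0% of all genes past 2-fold, and the median was 0.25 against -0.27 over all genes. With a pseudocount of 0.1, 4 of 8 exporters and 4 of 7 importers passed 2-fold at day 21. That stands beside 2718 higher and 3553 lower of the 11913 genes, so nothing is read from the count.

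Among the 10 exporters, 8 were above the minimum, and 1 was higher and 1 lower at day 21, the median being 0.06 as deposited, -0.03 with columns scaled to the same sum and -0.04 with quantile normalization. Slc30a3, a vesicular transporter gene, was by far the most abundant, at 293 and 299 FPKM at day 14 and at 256 and 202 FPKM at day 21. Slc30a6, of the Golgi, stood at 13.8 and 17.1 FPKM and then at 4.37 and 17.9 FPKM, a difference of 1.81 at day 21. Slc30a4 stood at 8.74 and 6.11 FPKM and then at 10.3 and 3.42 FPKM, a difference of -1.35.

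Among the 14 importers, 7 were above the minimum, and 1 was higher and 2 lower at day 21, the median being 0.28. With no minimum level, 3 of the 14 were higher and 2 lower. Slc39a4 and Slc39a8, under the minimum, had day 21 WT means of 0.0974 and 0.0311 FPKM. Their Mtr4-null means at that age were 2.26 and 2.53 FPKM. Slc39a1 stood at 33.4 and 48.6 FPKM at day 14 and at 8.29 and 39.2 FPKM at day 21, a difference of 2.11. The WT mean at day 21 was the low one of these 4. Slc39a6 stood at 98.2 and 93.6 FPKM and then at 95.5 and 21.1 FPKM, a difference of -2.12. Slc39a10, which forms a complex with Slc39a6, stood at 83.5 and 70.0 FPKM and then at 83.8 and 27.0 FPKM. For this pair the 3 other groups lay together and the Mtr4-null mean at day 21 was the low one.

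**Figure D5:**
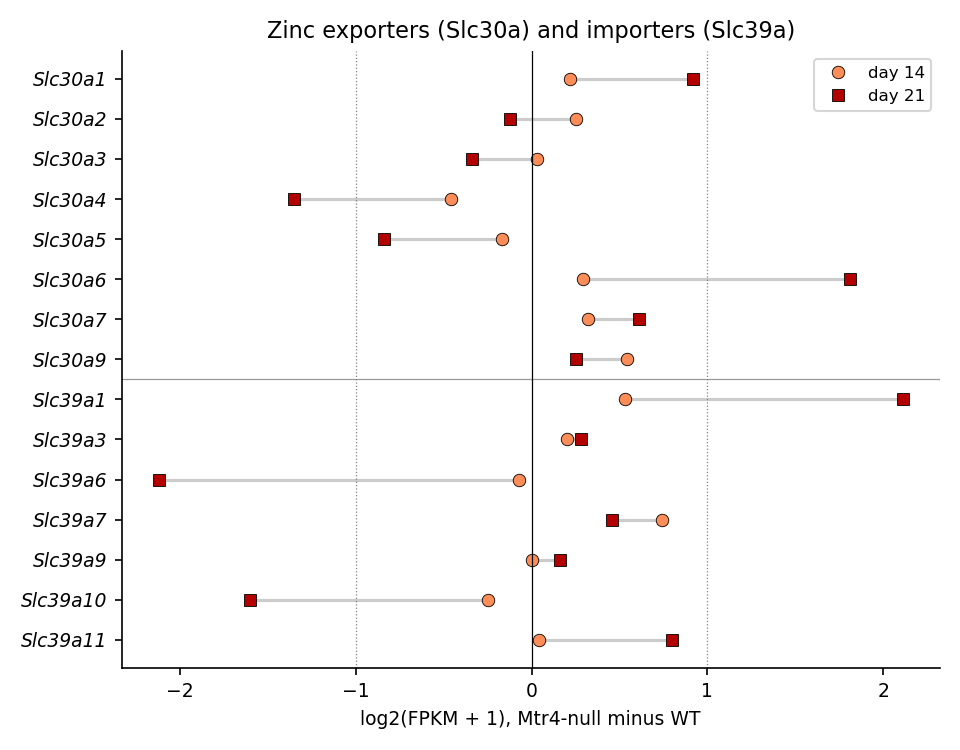
Log2(FPKM + 1) in Mtr4-null minus WT oocytes for the zinc exporter (Slc30a) and importer (Slc39a) genes above the minimum level, circles for day 14 and squares for day 21, joined by a line. All 15 lie within 2-fold at day 14, and at day 21 Slc39a1 and Slc30a6 are higher while Slc39a6, Slc39a10 and Slc30a4 are lower.

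Metallothioneins also bind copper, and 9 of 10 copper handling genes were above the minimum. At day 14, 0 were 2-fold higher and 0 lower (median 0.02). At day 21, 0 were higher and 2 lower (median -0.23), and under median-of-ratios scaling 0 passed 2-fold and the median was 0.08. The 2 were Cox17, a copper chaperone gene of the mitochondria, at 429 and 237 FPKM at day 14 and 499 and 229.6 FPKM at day 21, and Commd1, at 195 and 152 FPKM and then 189.7 and 86.0 FPKM. Of 10 iron handling genes 7 were above the minimum, with 0 higher and 0 lower at day 14 (median -0.12) and 2 higher and 1 lower at day 21 (median 0.14). Ftl1, the ferritin light chain gene, stood at 105 and 131 FPKM at day 14 and at 69.7 and 352 FPKM at day 21. Tfrc, the transferrin receptor gene, stood at 7.14 and 11.3 FPKM and then at 1.93 and 11.6 FPKM. Aco1, whose product also serves as an iron-responsive RNA-binding protein, stood at 18.2 and 15.1 FPKM and then at 18.4 and 4.69 FPKM.

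Metallothionein genes are known to respond to oxidative stress, heat shock and glucocorticoids as well as metals. Of 21 oxidative stress genes 19 were above the minimum, and 0 were 2-fold higher and 0 lower at day 14 (median -0.18). Prdx6, at a difference of -0.95, passed 2-fold at day 14 under quantile normalization and under median-of-ratios scaling. At day 21, 2 were higher and 4 lower, and the median of -0.21 turned to 0.11 under median-of-ratios scaling. Nfe2l2, which encodes the transcription factor NRF2 that drives many genes of this list, stood at 17.9 and 10.9 FPKM at day 14 and at 13.4 and 34.8 FPKM at day 21, a difference of 1.31 at the later age. Hmox1, the heme oxygenase gene that many stresses induce, stood between 0.761 and 1.40 FPKM in all groups. The cystine transporter gene Slc7a11 stood at 26.1 and 20.1 FPKM at day 14 and at 32.3 and 5.75 FPKM at day 21. Txnrd1, a thioredoxin reductase gene, stood at 30 and 28 FPKM and then at 42 and 11.9 FPKM, the glutathione peroxidase gene Gpx1 at 43.2 and 56.1 FPKM and then at 15.8 and 56.6 FPKM, and the peroxiredoxin gene Prdx2 at 1118 and 911 FPKM and then at 1102 and 361 FPKM.

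Of 13 heat shock genes 10 were above the minimum, with 0 higher and 0 lower at day 14 (median -0.08). At day 21, 1 was higher and 4 lower (median -0.41), and median-of-ratios scaling left 2 of the latter. The 5 of 10 past 2-fold are near the 46.0% of all genes. The inducible chaperone genes Hspa1a and Hspa1b stood at no more than 0.305 FPKM in any group. The constitutive Hspa8 stood at 791 and 765 FPKM at day 14 and at 567 and 218 FPKM at day 21, and Hsp90aa1 at 1249 and 882 FPKM and then at 969.7 and 357 FPKM. Hsf2, a heat shock transcription factor gene, stood at 32.8 and 29.2 FPKM and then at 13.0 and 31.3 FPKM. Hsph1 stood at 109.8 and 126 FPKM and then at 93.1 and 40.4 FPKM.

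Of 8 glucocorticoid response genes 5 were above the minimum, with 0 higher and 0 lower at day 14 (median 0.22, and -0.07 with quantile normalization). At day 21, 1 was higher and 0 lower (median -0.28). The 1 was Nr3c1, the glucocorticoid receptor gene, at 1.36 and 4.72 FPKM. The responsive genes Fkbp5 and Dusp1 had WT means of 44.3 and 42.8 FPKM at day 21 and Mtr4-null means of 27.6 and 21.5 FPKM, differences of -0.66 and -0.96.

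Mt1 and Mt2 are short, and FPKM divides by length, so genes of like length were counted too. The longest annotated transcript of Mt1 is 1085 bases, and 1714 genes had a longest transcript between 723 and 1630 bases. Of these, 9.98% were 2-fold higher and 2.16% lower at day 14, and 24.2% higher and 20% lower at day 21. Over all genes the shares were 8.10% and 1.55% at day 14, and 20.2% and 25.7% at day 21. The 3-exon transcripts of Mt1 and Mt2 given above, of 549 and 511 bases, are shorter than this range. A class added after the values were seen holds the 156 genes outside short RNA loci whose longest transcript was at most 600 bases. Of these, 28.8% were higher and 3.85% lower at day 14, and 39.7% higher and 15.4% lower at day 21. Short RNA loci were not left out of the 1714 genes or of the shares over all genes. As they were told by symbol only, short non-coding RNAs under other symbols may remain among the 156 genes. The part of transcript length in the level of Mt1 was not tested.

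All 12 oocyte markers were above 1 FPKM in every group, with a summed level between 14673 FPKM, in Mtr4-null at day 21, and 23877 FPKM, in WT at day 14. None was 2-fold apart at day 14, and 3 (Gdf9, Nobox and Kit) were lower at day 21, of which Gdf9 was short of 2-fold under median-of-ratios scaling. Of 13 granulosa markers 5 were above the minimum, and their list summed to between 26.8 and 38.9 FPKM, with Amh and Foxl2 under 0.4 FPKM throughout. Cyp19a1, the aromatase gene, stood at 10.5 and 4.3 FPKM at day 14 and at 25.3 and 1.48 FPKM at day 21, and Inha, an inhibin subunit gene, at 1.72 and 10.9 FPKM at day 21. The 9 theca and stromal markers summed to between 1.09 and 1.7 FPKM, with Lum at 0 in all groups. The 8 endothelial and blood markers summed to between 2.19 and 21 FPKM, nearly all from Pecam1, with Hbb-b1 and Hba-a1 at 0. Cyp19a1 carried much of the granulosa sum. Without it, a choice made after the values were seen, the other 12 markers summed to 17.6 FPKM in WT and 22.5 FPKM in the Mtr4-null group at day 14, and to 13.6 and 26.6 FPKM at day 21. These sums were thus higher in Mtr4-null at both ages. Those of the whole list were lower in Mtr4-null, at 28 and 26.8 FPKM at day 14 and at 38.9 and 28.1 FPKM at day 21. Inha held much of the difference at day 21 in the sums without Cyp19a1. Of the 12 markers, 7 had a higher mean in Mtr4-null at day 14 and 8 at day 21. The share of all genes with a higher mean was not counted, so nothing is read from these counts. The part of other cells in the levels of the members was not tested.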

How the data were processed

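The deposited table gives FPKM in 4 columns, 1 per group, averaged by the authors over that group's libraries. TopHat2 2.1.1, Cufflinks 2.2.1 and mm9 were used, per the submitters' processing notes, which give no role or order. Of columns of other samples there were 0. No values of single libraries were used here. Group differences of log2(FPKM + 1) and a 2-fold rule of size took the place of tests, over genes with a mean of at least 1 FPKM. The script was tested on simulated data with base levels of at least 5 FPKM. Levels as low as those of Mt2, or of Mt1 in WT, were not covered by that test. Python 3.11.15, pandas 2.3.3 and numpy 2.4.6 were used. Transcripts came from GENCODE vM21 and promoter windows from RefSeq, both on GRCm38, and transcript lengths were found for 98.5% of the 11913 genes counted. The members and gene lists were chosen with earlier results of these data known. Named genes were the members, the targeted gene, the other metallothioneins, the 3 neighbours on each side, the 5 most similar genes per member, and up to 4 genes of each list past 2-fold with at least 5 FPKM, or otherwise its 2 most abundant. Others (Slc30a1, Slc30a3, Slc39a4, Slc39a8, Csrp1, Gclc, Hmox1, Nfe2l2, Prdx6, Hspa1a, Hspa1b, Nr3c1, Bbs2, Sf3a3, Slc12a3, Herpud1, Fhl3, Amh, Foxl2, Lum, Hbb-b1 and Hba-a1) were picked after their values were seen. Alternatives were a pseudocount of 0.1, median-of-ratios scaling, quantile normalization, columns scaled to the same sum, no minimum level and a minimum of 5 FPKM.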

Additional observations from a re-analysis of the deposited data

How the results depend on the processing

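Mt1 and Mt4 kept their direction and their side of 2-fold in all 4 comparisons under the 4 alternatives run for single genes. The genotype difference of Mt1 ranged from 7.88 to 8.67 at day 14 and from 7.08 to 7.90 at day 21. With a pseudocount of 0.1, Mt2 differed between genotypes by -1.46 at day 14 and 2.31 at day 21, and between ages by -1.82 in WT and 1.95 in Mtr4-null oocytes, all past 2-fold. Columns scaled to the same sum gave 1.10 for Mt2 at day 21 and turned Mtf1 to 0.001 at day 14. Median-of-ratios scaling turned Mtf1 to 0.003 between the ages of Mtr4-null oocytes.

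Counts of genes past 2-fold moved by over 1.5 times in 9 cases. Lower genes at day 14 numbered 334 with a pseudocount of 0.1 and 321 with quantile normalization, against 185. Higher genes at day 21 numbered 1447 with a minimum of 5 FPKM, against 2410. Between ages in WT, 447 were higher and 835 lower with a pseudocount of 0.1, and 133 higher with a minimum of 5 FPKM, against 241 and 396. In Mtr4-null oocytes, median-of-ratios scaling gave 1813 higher and 1044 lower, and a minimum of 5 FPKM gave 695 higher, against 1082 and 2216. The higher share of the genes past 2-fold at day 14 was 83.9% as deposited and 68.8% with quantile normalization. At day 21 it was 44.0% as deposited and 57.3% with median-of-ratios scaling.

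Of the lists at day 21, zinc exporters past 2-fold numbered 4 with a pseudocount of 0.1, zinc importers 5 with no minimum level, copper genes 0 and heat shock genes 3 with median-of-ratios scaling, and glucocorticoid genes 2 with columns scaled to the same sum and 0 with a minimum of 5 FPKM. At day 14, oxidative stress genes numbered 2 with a pseudocount of 0.1 and 1 with each of median-of-ratios scaling and quantile normalization. Genes of at most 600 bases outside short RNA loci were higher in 28.8% at day 14 and 39.7% at day 21. The cause of these moves was not tested. No paired analysis was possible because the columns are group means and carry no replicate numbers, and for the same reason no replicate could be left out.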
